A study of Homo sapiens with 6 samples.

Results

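The genes described here are the nuclear genes for mitochondrial ribosomal proteins. They were chosen by symbol as the GENCODE v44 protein-coding genes on chromosomes 1 to 22, X and Y whose names begin with MRPL or MRPS followed by a number, which gave 78 of 20007 genes. By symbol, 49 belong to the large subunit (MRPL) and 29 to the small subunit (MRPS). They lie on 21 chromosomes. No measured value was used to choose them.

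The mitochondrial ribosome translates the few proteins encoded by mitochondrial DNA, all of them core parts of the oxidative phosphorylation (OXPHOS) complexes. Its ribosomal RNAs come from the mitochondrial genome, whereas every one of its proteins is made in the cytosol from a nuclear gene and imported. Its genes are expressed in nearly all cell types. The antibiotic tigecycline, which blocks this ribosome, is toxic to AML cells in culture.

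Acetylation of histone H3 at lysine 27 (H3K27ac), found where promoters and enhancers are active, was profiled by CUT&Tag, in which a transposase, held at the mark by an antibody, inserts adapters into nearby DNA. The 4 groups compared were all human acute myeloid leukemia (AML) cell lines. Kasumi-1 NC and MV4-11 NC were the controls, labelled untreated and described by the study as carrying a control hairpin, and Kasumi-1 sh-ANP32B and MV4-11 sh-ANP32B carried a hairpin against ANP32B, a histone chaperone. These are called NC and knockdown from here on. Kasumi-1 has a RUNX1::RUNX1T1 fusion and MV4-11 a KMT2A fusion. Both were stably infected with lentivirus and selected with puromycin, and the labels do not say which hairpin was used. Each group had 1 library entry with 1 peak list. The study's methods describe merging of replicates, and how many went into a list is not given. Differences between groups therefore have no replicate check, and no test was made. The 2 IgG libraries are not analysed here.

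The lists gave the position and length of each peak, without height or read number, so sequencing depth is unknown. They held 22136 to 24523 peaks on the chromosomes used. Peaks covered 32712240 bases in Kasumi-1 NC and 33674144 in its knockdown, and 27891707 bases in MV4-11 NC and 23004402 in its knockdown. Among 6 myeloid markers, SPI1 had a promoter peak in every library, CEBPA in all but MV4-11 knockdown, CD33 in Kasumi-1 only and LYZ and PTPRC in MV4-11 only, whereas MPO had none. The 6 markers of other tissues had no promoter peak in any library. ANP32B itself had a promoter peak in every library, which does not measure the knockdown.

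The promoter window of a gene took in 2500 bases before and 2500 after its canonical transcript start on hg38. It gave a pair of values, the number of bases of the window under peaks and the length of the widest peak touching it. A fall in these values may reflect fewer cells with the mark, less of it per cell or a shallower library, which cannot be told apart.

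The promoters themselves were compared first, from the genome sequence alone. In the 300 bases from 250 before to 50 after the start, the letters CCGGAAG of the ETS motif, read on both strands, were present in 32 of 78 members (41.0%) and in 14.1% of all 20007 promoters. The letters ATGGCGG of the YY1 motif were found in 33.3% of members and 7.82% of all promoters, and GCATGCG of the NRF1 motif in 10.3% and 5.11%. Shares above those of all promoters were not particular to the members. The ETS, YY1 and NRF1 letters stood in 28.6%, 28.6% and 15.5% of 84 genes for nuclear OXPHOS subunits. For 86 genes of cytosolic ribosomal proteins the shares were 34.9%, 17.4% and 9.3%. Shares of members and of all promoters were 8.97% and 8.76% for the E-box CACGTG, 28.2% and 36.1% for CCAAT of NF-Y, and 60.3% and 61.3% for GGGCGG of the SP/KLF family. ATGGCGG and GGGCGG can share part of their letters where they lie side by side. The median GC content was 59.7% in members and 63.7% in all promoters. These matches describe letters in the window and not binding.

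Sequence is shown for 7 members that stand for the classes met below, as the bases just upstream of the start, 5′ to 3′ on the gene's strand, from hg38. Capitals mark the motifs searched. The first 3 had no promoter peak in any library: MRPL42 (chr12:93467364-93467513, plus strand), MRPS21 (chr1:150293711-150293860, plus strand) and MRPS18A (chr6:43687792-43687941, minus strand).
MRPL42: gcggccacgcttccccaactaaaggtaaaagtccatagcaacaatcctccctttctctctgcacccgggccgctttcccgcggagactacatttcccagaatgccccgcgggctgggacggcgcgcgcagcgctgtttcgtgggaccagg
MRPS21: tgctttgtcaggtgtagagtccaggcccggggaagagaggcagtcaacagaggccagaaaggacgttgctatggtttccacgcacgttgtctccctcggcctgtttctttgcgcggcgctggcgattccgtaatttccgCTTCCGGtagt
MRPS18A: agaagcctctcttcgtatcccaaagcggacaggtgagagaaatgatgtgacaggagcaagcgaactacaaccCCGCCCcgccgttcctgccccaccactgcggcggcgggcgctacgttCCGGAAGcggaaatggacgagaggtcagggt

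The next 2 had a promoter peak in every library but MV4-11 knockdown: MRPL20 (chr1:1407294-1407443, minus strand) and MRPS12 (chr19:38930794-38930943, plus strand), whose stretch lies between its own start and that of SARS2 on the other strand.
MRPL20: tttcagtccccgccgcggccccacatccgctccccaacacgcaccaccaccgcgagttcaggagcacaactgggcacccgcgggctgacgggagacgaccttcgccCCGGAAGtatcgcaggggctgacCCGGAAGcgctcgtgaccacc
MRPS12: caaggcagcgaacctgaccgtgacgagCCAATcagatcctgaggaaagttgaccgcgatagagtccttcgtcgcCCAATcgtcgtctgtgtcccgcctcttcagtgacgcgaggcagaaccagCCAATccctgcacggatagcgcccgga

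The last pair had a promoter peak in every library, MRPL14 with the largest fall in Kasumi-1 (chr6:44127453-44127553, minus strand, reaching from its own start to that of TMEM63B) and MRPL18 with some of the widest peaks (chr6:159790317-159790466, plus strand).
MRPL14: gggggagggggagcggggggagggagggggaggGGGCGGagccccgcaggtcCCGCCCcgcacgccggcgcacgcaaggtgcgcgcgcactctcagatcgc
MRPL18: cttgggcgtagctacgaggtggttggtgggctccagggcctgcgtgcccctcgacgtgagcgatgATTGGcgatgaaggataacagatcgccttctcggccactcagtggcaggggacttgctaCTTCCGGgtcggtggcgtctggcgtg

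The ETS letters stand upstream of MRPS21, MRPS18A, MRPL20 and MRPL18, so they occur in members without any promoter peak as well as in members with one in every library. MRPS12 carries CCAAT at 3 places. None of the motifs searched is in the stretch of MRPL42.

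Most members carried H3K27ac at their promoters. A promoter peak was present in 69 of 78 members in Kasumi-1 NC and 68 in its knockdown, and in 55 in MV4-11 NC and 39 in its knockdown. As shares these were 88.5%, 87.2%, 70.5% and 50%, against 47.7%, 45.3%, 35.8% and 28.6% of all genes. The numbers differed by 1 member between the Kasumi-1 libraries and by 16 between the MV4-11 libraries. Subunits of the cytosolic ribosome had a promoter peak in 94.2%, 94.2%, 90.7% and 82.6% of 86 genes in the same order, and nuclear OXPHOS subunits in 89.3%, 88.1%, 72.6% and 65.5% of 84 genes. The members had the lowest share of the 3 lists in each of the 4 libraries, a difference that was not tested.

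**Figure D1:**
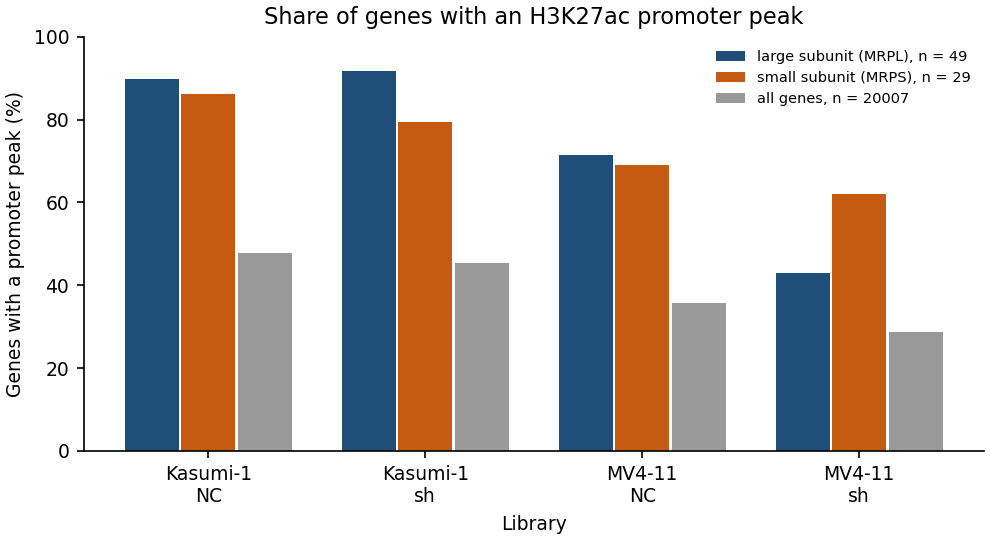
Share of genes (%) with an H3K27ac promoter peak in each library, for the 49 large subunit genes, the 29 small subunit genes and all 20007 genes, without error bars because each group had 1 library. The bars of both subunits stand at 79.3% or more in Kasumi-1, and the large subunit falls to 42.9% in MV4-11 sh-ANP32B where the small subunit stands at 62.1%.

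Over the libraries together, 34 members had a promoter peak in all 4 (43.6%, against 25.9% of all genes) and 5 had none in any (6.41%, against 50.1%). Another 17 had a peak in every library except MV4-11 knockdown (21.8%, against 7.66%), and 11 in both Kasumi-1 libraries and neither MV4-11 library (14.1%, against 9.72%). No member had a peak in both MV4-11 libraries and neither Kasumi-1 library (0.565% of all genes did). The remaining 11 members were spread over 6 other patterns. The 5 without any promoter peak were MRPL10, MRPL42, MRPL45, MRPS18A and MRPS21. MRPL45 is a protein near the exit of the nascent chain that holds the ribosome to the inner membrane, and MRPS18A is placed in the large subunit despite its symbol. The nearest peak to any of these starts was 9247 bases away, at MRPL10 in Kasumi-1 knockdown, and MRPL42 had its nearest at 24811 bases in both Kasumi-1 libraries.

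**Figure D2:**
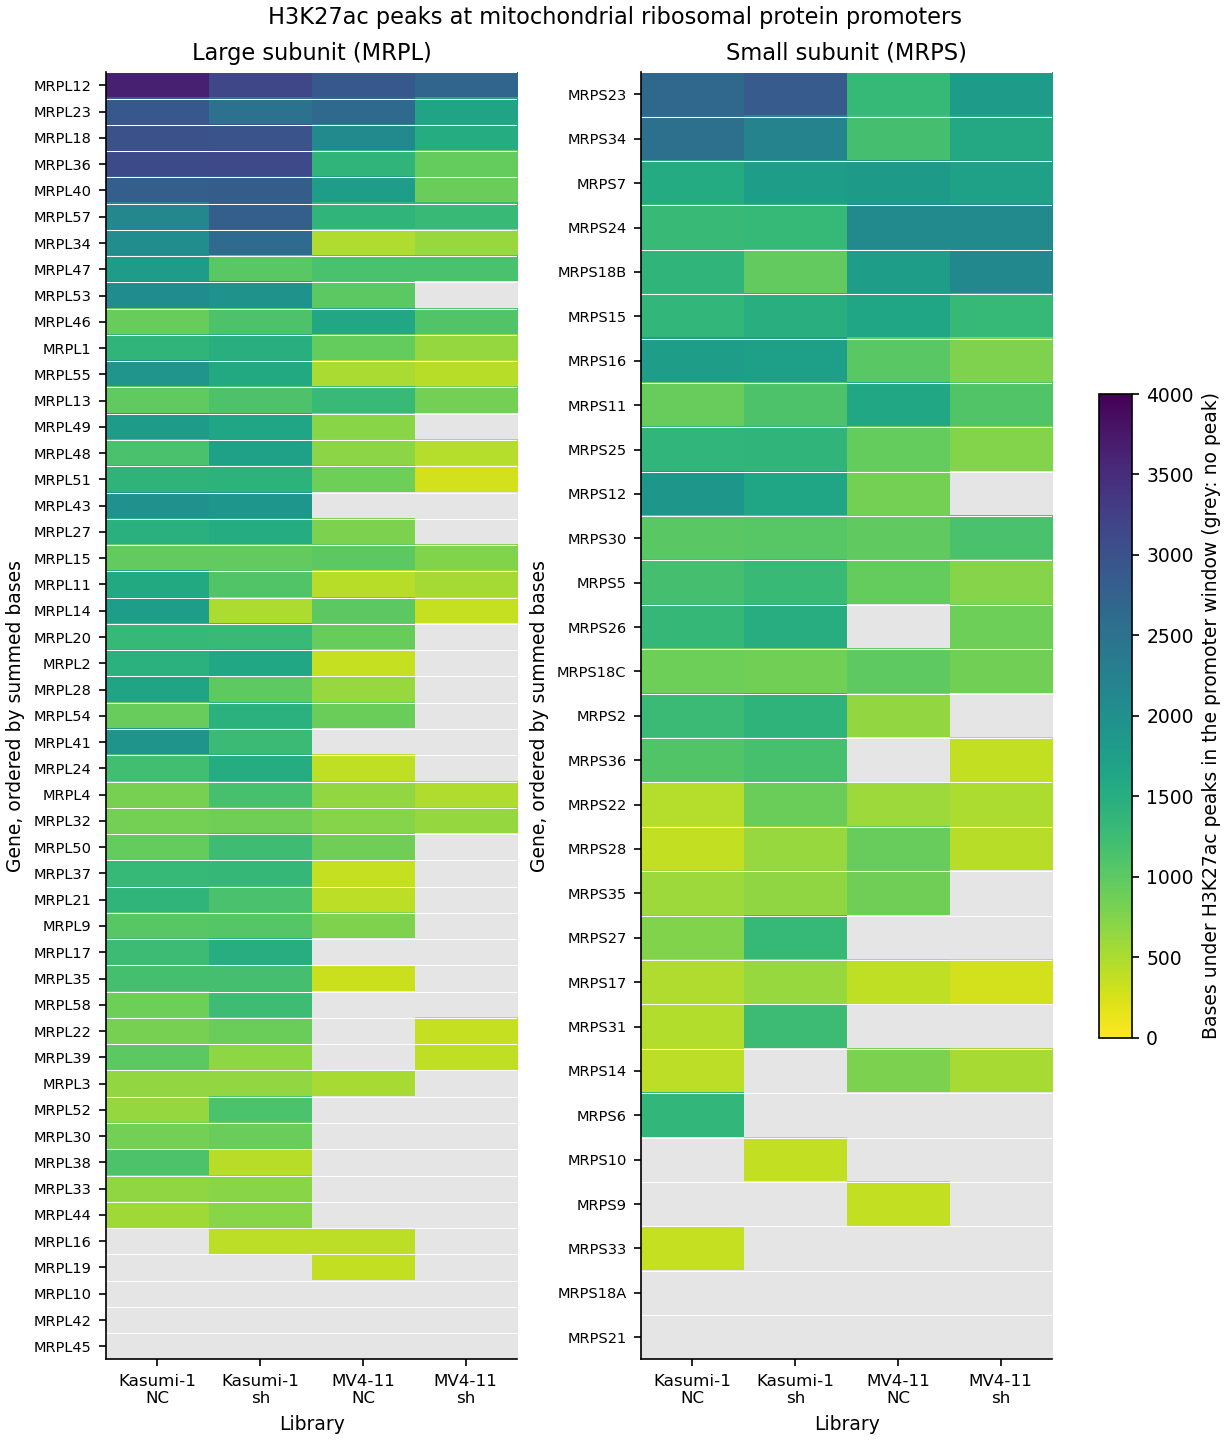
Bases of the promoter window under H3K27ac peaks for each of the 78 members (rows, ordered by their summed bases) in the 4 libraries (columns), with large and small subunit genes in separate panels and grey for no peak. Grey cells gather in the MV4-11 sh-ANP32B column of the large subunit, and MRPL12 at the top has 2700 bases or more in every library.

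Promoter peaks of the members were shorter in the median than those of all genes. The widest promoter peak had a median length of 1307 bases in Kasumi-1 NC, where it ranged from 357 to 3647, and of 1210 bases after knockdown (369 to 3145). In MV4-11 NC the median was 902 bases (321 to 3106) and after knockdown 744 bases (278 to 2700). For all genes with a promoter peak the medians were 1479, 1472, 995 and 859 bases, above the members in each library. Cytosolic ribosomal protein genes had medians of 1537, 1518, 1190 and 947 bases. Nuclear OXPHOS subunit genes had 1320, 1301, 951 and 652 bases, near the members in Kasumi-1 and MV4-11 NC and below them in MV4-11 knockdown.

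**Figure D3:**
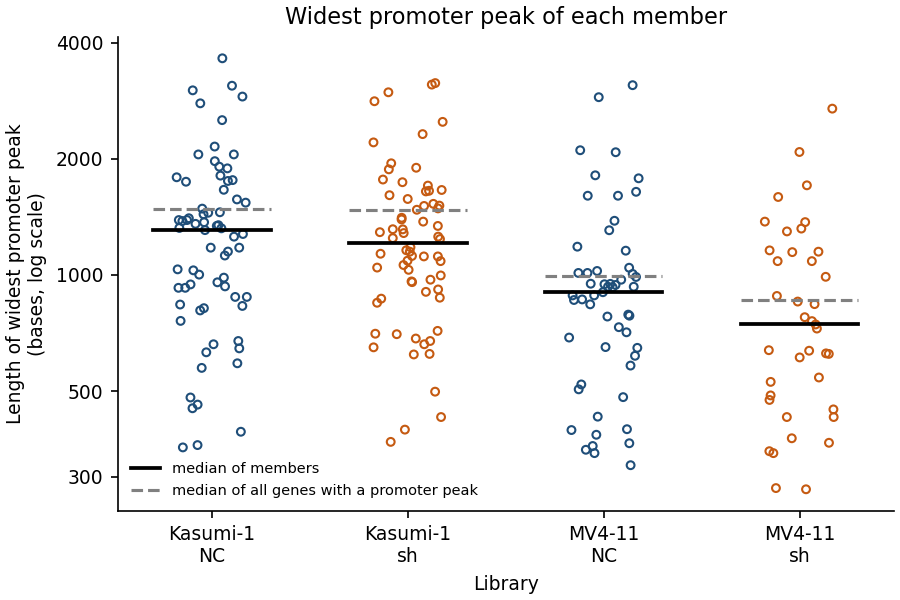
Length in bases (log scale) of the widest promoter peak of each member that had one, by library, as points with the median as a solid line and the median of all genes with a promoter peak as a dashed line. The solid line lies below the dashed one in each library, at 744 against 859 bases in MV4-11 sh-ANP32B.

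MRPL12, the stalk protein that recruits translation factors to the ribosome, had the widest peaks. A peak from 81701103 to 81704749 on chromosome 17 covered its start in Kasumi-1 NC, with 3647 bases, and the other libraries had 3145, 2891 and 2700 bases at the same place. MRPL36 had 3096 and 3117 bases in the NC and knockdown libraries of Kasumi-1, and 1381 and 945 in those of MV4-11. MRPL18 had 3012, 2977, 2081 and 1516 bases in the same order, so both were high in Kasumi-1 and lowest in MV4-11 knockdown. MRPL23, a protein at the exit of the nascent chain, had a peak of 3106 bases in MV4-11 NC, the longest at any member in that library. Among the small subunit genes MRPS24 had 1307 and 1314 bases in Kasumi-1 and 2106 and 2084 in MV4-11, an order opposite to that of most members. MRPS7, a protein of the head of the small subunit, had 1540, 1768, 1813 and 1708 bases, close to equal throughout. At the other end MRPS17 had 481, 622, 385 and 280 bases, MRPS28 362, 624, 932 and 428, and MRPS22 451, 904, 582 and 487, the smallest sums among members with a peak in all 4 libraries.

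Peaks of the members mostly sat over the start in Kasumi-1. There, similar numbers reached 500 bases to each side, and farther out the reach was more often upstream. The start itself was under a peak in 64 members in Kasumi-1 NC and 61 after knockdown, and in 36 and 25 members in MV4-11. As shares of members with a promoter peak these were 92.8%, 89.7%, 65.5% and 64.1%. For all genes with a promoter peak the shares were 86.7%, 77.8%, 66.4% and 57.5%. In MV4-11 the position most often covered lay 150 bases downstream of the start in NC, with 47 members, and 100 bases downstream after knockdown, with 34. Over all genes it lay 150 bases downstream in both MV4-11 libraries, with 27.6% of genes in NC and 20.1% after knockdown. At 500 bases upstream, 40 members were covered in each Kasumi-1 library, against 21 and 14 in MV4-11. The shares there were 51.3%, 51.3%, 26.9% and 17.9% of members and 27.1%, 26.3%, 14.6% and 10.8% of all genes. At 500 bases downstream it was 42 and 43 members of Kasumi-1, against 25 and 13 of MV4-11. The shares there were 53.8%, 55.1%, 32.1% and 16.7% of members and 35.3%, 32.8%, 19.1% and 13.3% of all genes. At 1500 bases upstream 8 members were covered in each Kasumi-1 library, and at 1500 downstream 1 in NC and 2 after knockdown. For all genes, 6.7% and 7.06% were covered at 1500 upstream, and 8.22% and 8.78% at 1500 downstream.

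**Figure D4:**
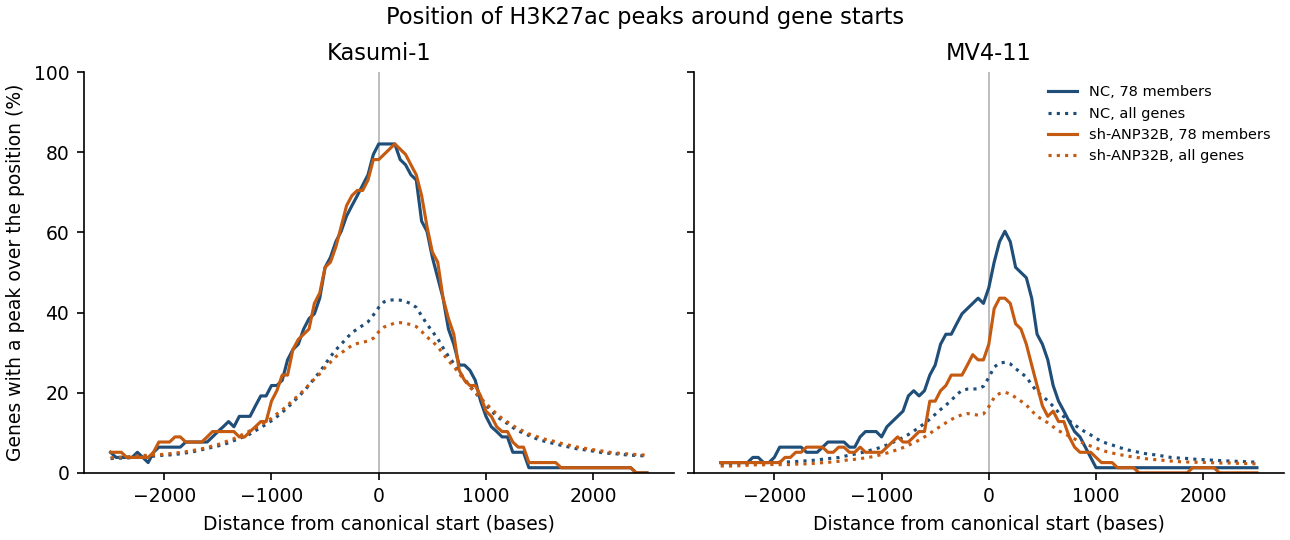
Share of the 78 members (solid lines) and of all 20007 genes (dotted lines) with a peak over each position, by distance in bases from the canonical start in the direction of transcription, for NC and sh-ANP32B in each cell line. The solid lines of Kasumi-1 overlap and reach 82.1%, and those of MV4-11 peak just downstream of the start at 60.3% in NC and 43.6% in sh-ANP32B.

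The knockdown library was then compared with NC within each line. In Kasumi-1, 3 of 69 members lost their promoter peak (4.35%, against 6.8% of all genes with an NC promoter peak) and 2 of 9 gained one (22.2%, against 1.6%). The 1.6% is over 10471 genes without an NC promoter peak, and 10022 of all genes had none in any library. Among nuclear OXPHOS subunit genes, 1 of 9 gained one (11.1%). MRPS6 lost a peak of 1346 bases, whereas MRPS14 and MRPS33 lost peaks of 392 and 357 bases. The gained peaks, at MRPL16 and MRPS10, were 397 and 369 bases long. Apart from MRPS6, these peaks were close to the smallest length of 357 and 354 bases in the Kasumi-1 lists. With the 10000 widest peaks of each list, 9 members lost and 7 gained a peak.

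Of the 71 members with a promoter peak in either Kasumi-1 library, 47 had more bases under peaks after knockdown (66.2%, against 48.9% of all genes) and 24 had fewer (33.8%, against 49.9%). The median change was 35 bases over these members and 0 over all genes, and with the 10000 widest peaks of each list 24 members had more bases and 20 fewer. Cytosolic ribosomal protein genes were split alike, with 63.0% of 81 genes higher. Other lists were not, with 51.3% of 76 nuclear OXPHOS subunit genes higher and a median change of 1.5 bases. Of 13 mitochondrial aminoacyl-tRNA synthetase genes 30.8% were higher, with a median change of -54 bases. Most changes were small. Among 66 members with a peak in both libraries, 6 were higher by at least 1.5-fold (9.09%, against 3.42%) and 5 lower (7.58%, against 8.64%).

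Among members with a peak in both Kasumi-1 libraries, the 4 largest falls were at large subunit genes. MRPL14, a protein at the interface of the subunits, went from 1762 to 498 bases, as the peak from 44126848 to 44128609 on chromosome 6 shortened to end at 44127345 and no longer covered the start. The same gene went from 1012 to 349 bases in MV4-11. MRPL47 went from 1810 to 1031 bases, MRPL38 from 1123 to 428 and MRPL28 from 1663 to 997. The largest rises were at MRPS31, from 461 to 1257 bases, MRPL57, from 2153 to 2787, MRPL48, from 1150 to 1705, and MRPS27, from 760 to 1313, with MRPL34 equal to MRPS27 at 553 bases more (2041 to 2594). MRPS31 and MRPS27 are proteins of the small subunit without bacterial counterparts, and neither had a promoter peak in MV4-11.

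In MV4-11 the change was larger and mostly downward. Of 55 members with an NC promoter peak, 20 lost it (36.4%, against 24.4% of all genes), and 4 of 23 without one gained one (17.4%, against 2.45%). The 2.45% is over 12854 genes without an NC promoter peak, and 10022 of all genes had none in any library. Among nuclear OXPHOS subunit genes, 3 of 23 gained one (13.0%). Fewer bases after knockdown were found at 49 of 59 members (83.1%, against 78.1%) and more at 10 (16.9%, against 21.5%). The median change was -324 bases over members and -323 over all genes. Among 35 members with a peak in both libraries the median was -205 bases, against -211, with 8 lower by at least 1.5-fold (22.9%, against 29.9%) and 0 higher (against 4.23%). The size of the change at members was therefore near that of all genes, while bases under peaks over the whole genome moved the same way. The part of that shift in these values was not tested.

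The members that lost their peak in MV4-11 were mainly of the large subunit. The loss took 16 of 35 large subunit genes (45.7%) and 4 of 20 small subunit genes (20.0%), against 24.4% of all genes. The lost members with most bases of the window under peaks in MV4-11 NC were MRPL53 with 1012 bases, MRPL20 with 929, MRPL54 with 902, MRPL50 with 864, MRPS35 with 861 and MRPS12, a protein of the decoding centre, with 839. MRPL20 kept 1321 and 1291 bases in the Kasumi-1 libraries, and its MV4-11 NC peak from 1406844 to 1407772 on chromosome 1 covered the start. The MRPL54 peak ended 656 bases upstream of its start and covered the start of APBA3, on the other strand. In MV4-11 knockdown the nearest peak to a lost member was 3940 bases away, at MRPL35, so no peak had moved just past the window.

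The lost peaks were short. Their median length in MV4-11 NC was 680 bases, against 988 in the 35 members that kept a peak, and 19 of 20 were under 1000 bases. Among members with an NC peak under 1000 bases, 51.4% of 37 lost it, against 42.2% of all genes with such a peak, and among those with a longer peak 1 of 18 did (5.56%, against 6.29%). In the shorter class the loss took 15 of 24 large subunit genes (62.5%) and 4 of 13 small subunit genes (30.8%). With the 10000 widest peaks of each list, 19 members had a promoter peak in MV4-11 NC and 17 in MV4-11 knockdown, and 5 lost one. The median GC content of the promoters was 59.7% for lost members and 58.7% for kept ones. The ETS letters stood in 8 of 20 lost and 11 of 35 kept members, and the YY1 letters in 6 and 13. The difference between the subunits was not tested.

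The other 14 members that lost their MV4-11 peak had 784 bases of the window or fewer under peaks in MV4-11 NC, and the peak at MRPL24, with 388 bases inside the window, was 948 bases long. MRPL27 had 784 bases there, MRPL9 had 780 and MRPL49 had 710, next to MRPS2 with 650 and MRPL28 with 617. MRPL3, a protein near the peptidyl transferase centre, had 520 bases and MRPL21, MRPL16, MRPL24, MRPS9, MRPL19, MRPL2, MRPL37 and MRPL35 between 321 and 398. In Kasumi-1 several of these had wide promoter peaks in both libraries, with 1792 and 1647 bases at MRPL49, 1450 and 1610 at MRPL2, and 1454 and 1529 at MRPL27. MRPL53 had 2054 and 1948 bases there and MRPS12 had 1890 and 1653.

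**Figure D5:**
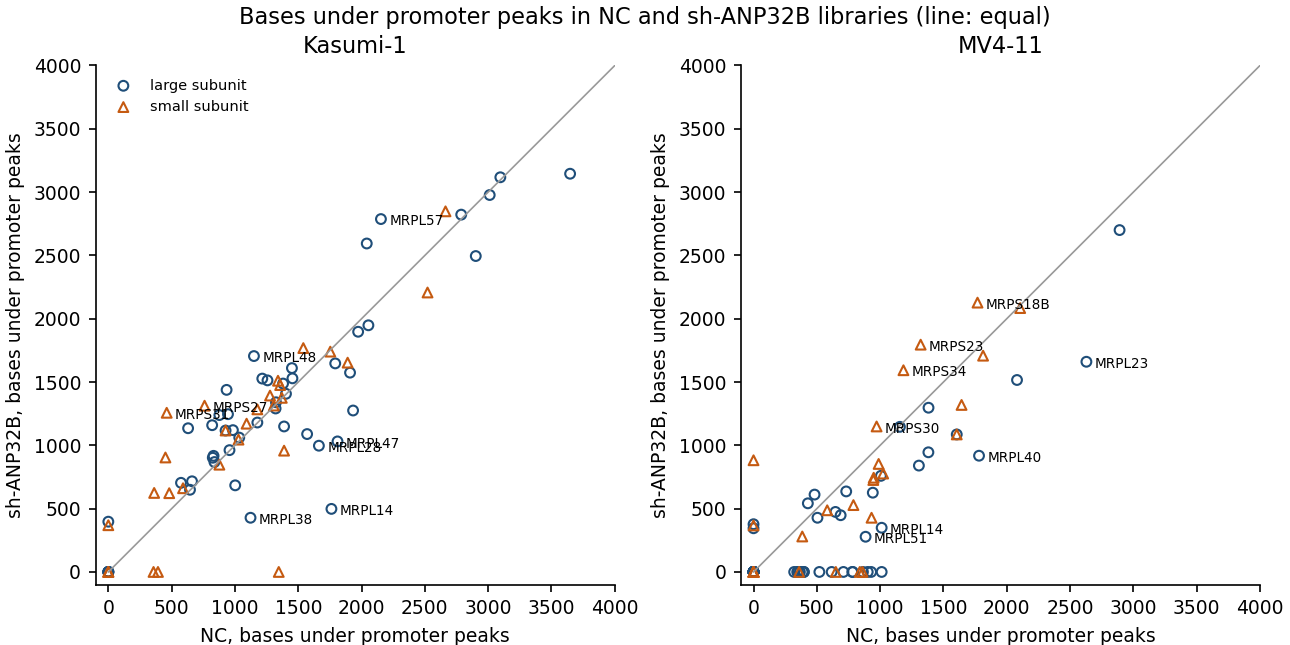
Bases under promoter peaks in NC (horizontal axis) and sh-ANP32B (vertical axis) for each member in Kasumi-1 and MV4-11, with circles for the large and triangles for the small subunit and a line where both are equal. Points lie on both sides of the line in Kasumi-1, with MRPL14 at 1762 and 498 bases far below it, and most points lie below it in MV4-11, where 20 sit at 0 on the vertical axis with an NC value above 0.

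Among members that kept a peak in MV4-11, MRPL23 went from 2629 to 1660 bases, MRPL40 from 1781 to 918, MRPL14 from 1012 to 349 and MRPL51 from 885 to 278. The 4 largest rises were at small subunit genes by symbol, while MRPL11 (429 to 542 bases) and MRPL34 (482 to 611) were the other members with more. MRPS23 went from 1320 to 1795 bases, MRPS34 from 1184 to 1593, MRPS18B from 1769 to 2127 and MRPS30 from 972 to 1149. The protein of MRPS30 is placed in the large subunit. The MRPS23 value was the sum of 2 peaks in each library. The gained peaks were at MRPS26, with 882 bases, MRPL39 with 377, MRPS36 with 367 and MRPL22 with 345. Those at MRPL39, MRPS36 and MRPL22 were short, in a list whose smallest peak was 275 bases. All of the genes with a gained peak had a promoter peak in both Kasumi-1 libraries. MRPS36 is now placed in the alpha-ketoglutarate dehydrogenase complex rather than the ribosome.

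The lines were also set side by side. No member lost its promoter peak in both lines, where 1.08% of genes with an NC peak in both lines did. Of the 34 members with a peak in all 4 libraries, 20 had more bases in Kasumi-1 and fewer in MV4-11 after knockdown, 8 had fewer in both, 3 more in both and 3 fewer in Kasumi-1 and more in MV4-11. The same counts over all genes were not made, and a link between the directions in the lines was not tested. Among genes with a promoter peak in either Kasumi-1 library, 66.2% of members and 48.9% of all genes had more bases after knockdown. In MV4-11, 83.1% and 78.1% had fewer. Among the 20 with opposite directions, MRPL1 had 1380 and 1488 bases in Kasumi-1 and 942 and 626 in MV4-11, and MRPL13 had 984 and 1120 against 1306 and 840. MRPS15 had 1357 and 1476 bases against 1643 and 1319, and MRPL4 820 and 1159 against 647 and 474. MRPL14, MRPL47, MRPL55 and MRPS16 were among the 8 lower in both lines. MRPL55 had 1909 and 1574 bases in Kasumi-1 and 505 and 428 in MV4-11. MRPL34, MRPS23 and MRPS30 were the 3 higher in both, and MRPL11, MRPS18B and MRPS34 the 3 lower in Kasumi-1 and higher in MV4-11. MRPL16 gained a peak of 397 bases in Kasumi-1 and lost a peak of 396 bases in MV4-11.

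Between the controls, MV4-11 had the weaker coverage. Of 69 members with a promoter peak in Kasumi-1 NC, 17 had none in MV4-11 NC (24.6%, against 27.9% of all genes). Of 9 members without one in Kasumi-1 NC, 3 had one in MV4-11 NC (33.3%, against 2.65% of 10471 genes). Among nuclear OXPHOS subunit genes, 2 of 9 did (22.2%). The 3 members were MRPL19 with 366 bases, MRPS9 with 360 and MRPL16 with 396. Their peaks were close to the smallest length of 357 bases in the Kasumi-1 NC list. Bases under peaks were fewer in MV4-11 NC at 56 of 72 members (77.8%, against 83.9%). The large subunit was lower at 41 of 46 genes and the small subunit at 15 of 26. The members with peaks in Kasumi-1 only included MRPL43, with 1973 bases in NC and 1897 after knockdown, MRPL41, with 1933 and 1275, and MRPL17, with 1257 and 1513. MRPL58, a peptidyl-tRNA hydrolase that frees stalled ribosomes, had 877 and 1239 bases there and MRPL52 630 and 1135. The others were MRPL30 with 831 and 917 bases, MRPL33 with 661 and 716, MRPL38 with 1123 and 428, MRPL44 with 574 and 704, and the small subunit genes MRPS27 and MRPS31. Across the 11 such members the nearest MV4-11 NC peak was between 7669 and 47405 bases from the start.

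Many members share their promoter with a neighbour. In 26 of 78 (33.3%, against 9.47% of all genes) another protein-coding gene began on the other strand at most 1000 bases upstream, and a peak there cannot be assigned to either gene. MRPL46 and MRPS11 are such a pair, with starts 320 bases apart, and share 1 peak in each library, so they are not separate observations: its length was 926 bases in NC and 1117 after knockdown in Kasumi-1, against 1605 and 1086 in MV4-11. Other partners also serve mitochondria. MRPS12 lies 181 bases from SARS2, the mitochondrial seryl-tRNA synthetase, MRPL43 lies 46 bases from TWNK, the helicase of mitochondrial DNA, and MRPL47 lies 156 bases from NDUFB5, a subunit of complex I. MRPL49 lies 187 bases from FAU, which encodes a protein of the cytosolic ribosome. Members with such a partner showed a promoter peak in 25 of 26 cases in either Kasumi-1 library, 22 in MV4-11 NC and 13 after its knockdown. For all genes with a partner the shares were 85%, 83.2%, 65.5% and 52.2%, so the 50% of members in MV4-11 knockdown was near that background. The other 52 members had one in 44, 43, 33 and 26 cases (84.6%, 82.7%, 63.5% and 50%). For all genes without a partner the shares were 43.8%, 41.3%, 32.6% and 26.2%, below the members in each library. In MV4-11, 9 of 22 members with a partner (40.9%, against 22.2% of all genes with one) and 11 of 33 without (33.3%, against 24.8%) lost their peak. Peaks were also shared beyond these partners. In Kasumi-1 NC the widest promoter peak touched the window of another protein-coding gene at 33 of 69 members (47.8%). In MV4-11 NC it did so at 25 of 55 (45.5%), and the same shares over all genes were not computed. The Kasumi-1 NC peaks at MRPL12, MRPL36 and MRPS6, which had no partner, were among those shared.

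Genes that work beside the members in mitochondrial translation were taken from lists chosen by function. These lists are short. For all genes the shares with a promoter peak were 47.7% in Kasumi-1 NC, 45.3% in its knockdown, 35.8% in MV4-11 NC and 28.6% in its knockdown. Of 5 proteins of this ribosome with other symbols, 5 had a promoter peak in each Kasumi-1 library and 4 in each MV4-11 library. In MV4-11 AURKAIP1 went from 779 to 352 bases, GADD45GIP1 from 1075 to 877 and PTCD3 from 914 to 1055. Of 26 genes for ribosome assembly and modification of its RNA, 23 had a promoter peak in each Kasumi-1 library (88.5%). In MV4-11 NC 13 had one (50%) and in MV4-11 knockdown 11 (42.3%). Fewer bases after knockdown were found at 12 of 13 in MV4-11 (92.3%, against 78.1% of all genes). MRM3, a methyltransferase of the large ribosomal RNA, went from 730 to 0 bases, NGRN from 647 to 0 and MRM2, another such methyltransferase, from 1316 to 702.

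Translation factors were the list with most losses in Kasumi-1, at 4 of 13 genes (30.8%, against 6.8% of all genes), and 4 of 10 were lost in MV4-11 (40%, against 24.4%). Their widest promoter peak had a median of 771 bases in Kasumi-1 NC, against 1479 for all genes. Among all genes with an NC peak under 1000 bases, 21.3% lost it in Kasumi-1 and 42.2% in MV4-11. The genes lost in Kasumi-1 included MTFMT with 496 bases and SLIRP with 500. TACO1, an activator of the synthesis of a subunit of cytochrome c oxidase, lost its peak in both lines, from NC values of 416 bases (Kasumi-1) and 325 bases (MV4-11). TUFM, the mitochondrial elongation factor Tu, was picked after its values were seen. Its 1480 bases in Kasumi-1 NC went to 0, and in MV4-11 it had 903 and 606 bases. GUF1 had 683 and 508 bases in the Kasumi-1 libraries, and in MV4-11 its 739 bases went to 0. TSFM was higher after knockdown in both lines, with 980 and 1482 bases in Kasumi-1 and 910 and 1423 in MV4-11. Of 17 mitochondrial aminoacyl-tRNA synthetase genes, promoter peaks marked 13 and 12 in the Kasumi-1 libraries and 6 and 5 in MV4-11. The MV4-11 shares of 35.3% and 29.4% were near the 35.8% and 28.6% of all genes. WARS2 went from 1241 to 0 bases in MV4-11, SARS2 from 839 to 0 through the peak it shares with MRPS12, and EARS2 from 0 to 550.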

How the data were processed

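H3K27ac CUT&Tag was performed in Kasumi-1 and MV4-11 cells. As deposited by the authors, each list gives the position and length in bases of every peak. Reads were aligned to hg38 with Bowtie2, duplicates were removed with Picard, replicates were merged with samtools and peaks were called with MACS. The submitters' processing notes name Bowtie2 2.4.4 and MACS3 3.0, whereas the study's methods name MACS2 and another Bowtie2 version. Merging removed the spread between replicates, and use of the IgG libraries as control is not given in the sources used here. The smallest peak length was 357, 354, 289 and 275 bases in Kasumi-1 NC, Kasumi-1 sh-ANP32B, MV4-11 NC and MV4-11 sh-ANP32B, so very short peaks could be listed in MV4-11 only.

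Starts were those of canonical transcripts in GENCODE v44. Overlap of at least 1 base with the window of 2500 bases to each side made a promoter peak. Lost and gained compare NC with sh-ANP32B. Values were computed with Python 3.11.15 and pandas 2.3.3, and the scoring was tested on simulated peaks. No test was made, with 1 library per group. Members, lists and named genes were chosen with earlier results of these data known. Named were members without a peak, lost, gained or present in 1 line only (for over 12 such genes or for 1 line, the 6 with most bases), the 4 largest falls and rises per line, the 3 widest per library and the 3 smallest sums, plus 3 genes per related list. Alternatives were a window of 1000 bases, any protein-coding start, at least 200 bases under peaks, peaks joined within 1000 bases, a common minimum length (357 bases) and joining gap (358 bases), the 10000 widest peaks, only peaks of 1000 bases or more, a change of 1.5-fold, percentiles of length, and only members with peaks in both libraries.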

Additional observations from a re-analysis of the deposited data

Results flagged for a closer look

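The median change of bases under promoter peaks over the members had opposite signs in the lines, with 35 bases in Kasumi-1 and -324 bases in MV4-11 for sh-ANP32B minus NC. Each line had 1 library per group, so how far the lines differ was not tested. Over all genes the median changes were 0 and -323 bases.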

How the results depend on the processing

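Of 138 recomputed values for 21 results, 112 stayed within 1.5 times the count reported or inside the interval of the median, and no median change turned its sign. The other 26 moved under alternatives that admit fewer peaks, ask for a larger change or use another unit. With the 10000 widest peaks of each list, members with a promoter peak numbered 37, 35, 19 and 17 in Kasumi-1 NC, Kasumi-1 sh-ANP32B, MV4-11 NC and MV4-11 sh-ANP32B, and median lengths were 1570, 1574, 1382 and 1158 bases. Members lost and gained were then 9 and 7 in Kasumi-1, 5 were lost in MV4-11, 24 had more bases in Kasumi-1, 17 had fewer and 5 more in MV4-11, and NC peaks were in both lines for 14 members and in MV4-11 only for 5. When a promoter peak had to reach 1000 bases in one list and any peak counted in the other, 1 member was lost and 0 gained in each line. A change of at least 1.5-fold was met by 8 members with fewer and 8 with more bases in Kasumi-1, and by 28 and 4 in MV4-11, lost and gained members included. By percentile of length, the median change was 3.19 in Kasumi-1 and -10.8 in MV4-11. No paired analysis was possible because each group had 1 library and the labels give no replicate numbers. The unknown depth limits every value, since a short peak can be missed in a shallower library.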
